A study of Mus musculus with 8 samples.

Results

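Oxidative phosphorylation (OXPHOS) genes were read in RNA-Seq data of tumor-associated macrophages (TAMs) from mice with and without miR-21. The members were the rows of the expression table whose symbol begins with Nduf, Uqcr, Cox4 to Cox8 or Atp5, or is Sdha, Sdhb, Sdhc or Sdhd, with 7 pseudogenes left out. This gave 92 of the 53247 genes in the table. Of the 92, 81 encode subunits of complexes I to V or tissue isoforms of them. The other 11 are assembly factors and related genes that share the symbols. By complex, 44 members belong to complex I, 4 to complex II, 8 to complex III, 20 to complex IV and 16 to complex V.

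The libraries came from 4 WT and 4 miR-21-/- samples of the C57/BL6 strain. Lewis lung carcinoma (LLC) cells, a mouse lung tumor line, were placed under the skin at 8 weeks of age. TAMs were sorted after 14 days, at 10 weeks of age, as CD45+ CD11b+ MHCII+ F4/80+ cells. The null allele was carried by every host cell and not by macrophages only, while the implanted LLC cells were the same in both genotypes. The samples are labelled as biological replicates without naming the animals, and miR-21-/- replicate 1 carries 2 numbers in its name with no word on pooling, so the p-values measure only the spread between these samples. In bulk RNA, fewer cells of a type and less RNA per cell cannot be told apart.

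The respiratory chain in the inner mitochondrial membrane takes electrons from NADH at complex I and from succinate at complex II, passes them through complex III and cytochrome c to complex IV, and pumps protons on the way. ATP synthase, complex V, uses the proton gradient to make ATP. Macrophages polarized by IL-4 are known for reliance on this pathway, and macrophages activated by LPS and interferon for glycolysis and for a build-up of succinate, the substrate of complex II. The complexes are built from subunits of both genomes, nuclear and mitochondrial. The table lists the 13 mitochondrial-encoded subunits at 0.0001 CPM (counts per 1e+06 reads) in all 8 libraries, which is the value for no reads, so they were not tested.

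Depth, read from the steps between low values, was between 20.2 and 33.4 in units of 1e+06 reads per library, and 3 reads were worth 0.0899 to 0.148 CPM. The 4 libraries per genotype limit the precision, as does the number of reads for the scarcest members. The summed CPM of 8 macrophage and sort markers was 7393 to 8390 in WT and 6584 to 7947 in miR-21-/-. The summed CPM of 7 epithelial and mesenchymal markers was 63.9 to 132 in WT and 20.48 to 54.95 in miR-21-/-, and the sum of 5 neutrophil markers was 471 to 853 and 357 to 503. The 4 stress markers (Fos, Jun, Hspa1a and Hspa1b) summed to 1454 to 2718 CPM in WT and 1387 to 1835 CPM in miR-21-/-, with a median log2 fold change of -0.51 and 3 of the 4 lower at an adjusted p at or under 0.05. The part of these cells and of stress in the results below was not tested. Mir21a was listed at 0.0001 CPM in all 8 libraries, so the row does not check the genotype labels. Vmp1, whose gene body holds Mir21a on the same strand, had 124 ± 9.08 CPM in WT against 397 ± 23.4 CPM in miR-21-/- (SD, n = 4 each).

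The OXPHOS genes moved little between the genotypes. The 92 members together held 0.481% to 0.516% of the listed CPM in WT and 0.446% to 0.486% in miR-21-/-. Their sum was 3968 ± 145 CPM in WT against 3752 ± 170 CPM in miR-21-/- (SD, n = 4 each), with overlapping libraries. Requiring a mean CPM of 1 or more, after columns were brought to 1e+06, left 86 members, tested with limma on log2(CPM + 1) among 13850 genes. None of the 86 passed the limits of an adjusted p at or under 0.005 with a fold change over 1.5, which 7.12% of all tested genes passed. At an unadjusted p under 0.05 there were 28 members (32.6%), where 46.4% of all tested genes had such a p. The median log2 fold change of the members was -0.06, beside -0.10 over all tested genes (0.05 and -0.003 after the median of ratios). The range between the lower and upper quartile was 0.21 for the members and 0.34 for all genes.

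At an adjusted p at or under 0.05 and any fold, 16 members were lower in miR-21-/- TAMs, where 26.5% of all genes were lower, and 2 were higher, where 9.49% of all genes were higher. The 16 make up 18.6% and the 2 make up 2.33% of the 86, so neither share was above the background in the values as deposited. After the libraries were rescaled by the median of ratios over genes, 6 of these 18 members passed with the same sign and 12 did not pass. Expression did not overlap between the genotypes for 22 members (25.6%), against 35.1% of all genes. Of these, 18 were lower (background 25.7%) and 4 were higher (background 9.44%). With 1 library left out in turn, 8 to 12 members were lower (9.3% to 14%, where 18.8% to 25.9% of all genes were lower) and 0 to 3 were higher (0% to 3.49%, where 7.62% to 9.34% of all genes were higher), in fits with fewer samples. The lower count was 9 without WT replicate 2, 8 without WT replicate 3, 9 without miR-21-/- replicate 1 and 8 without miR-21-/- replicate 3. The higher count was 1 without WT replicate 2, WT replicate 4 or miR-21-/- replicate 4, and 0 without miR-21-/- replicate 2. Of the 18 members called, 8 passed in each of these 8 fits, namely Atp5c1, Cox4i1, Cox7a2l, Ndufa4, Ndufa6, Ndufaf7, Ndufb11 and Uqcrh. Among them Atp5c1, Cox4i1, Ndufa4 and Uqcrh did not pass after the median of ratios (adjusted p of 0.131 to 0.287). The share of all genes that passed in all 8 fits was not counted.

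**Figure D1:**
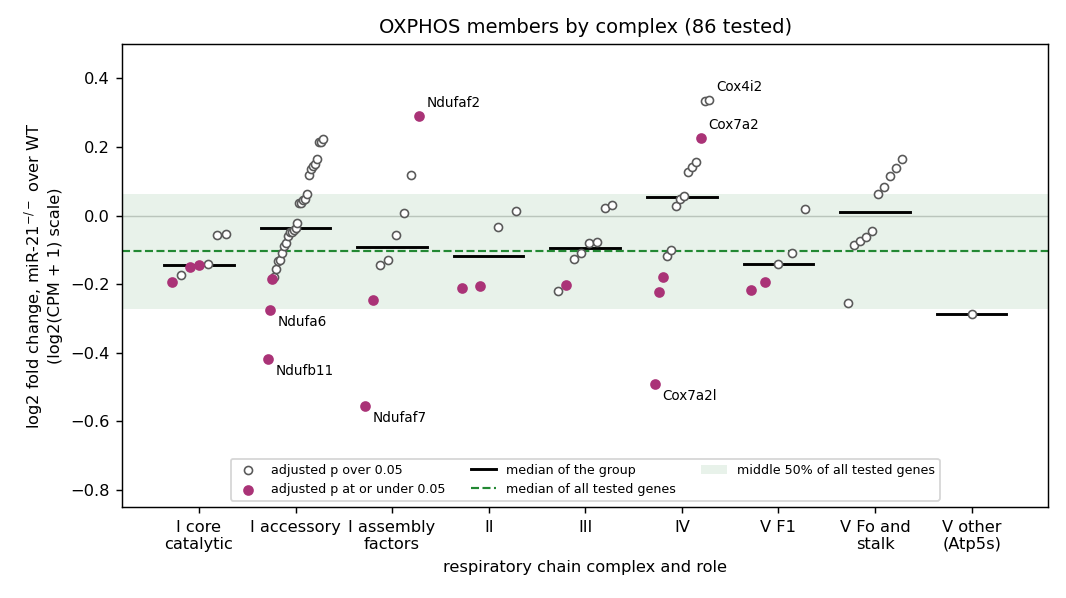
Each point is a tested member, placed by complex and role on the x axis, with its log2 fold change (miR-21-/- over WT, log2(CPM + 1) scale) on the y axis. Filled points have an adjusted p at or under 0.05, black bars are group medians, and the dashed line and band are the median and the middle 50% of all tested genes. In the values as deposited the 7 core catalytic subunits of complex I all lie below 0, as do 66.8% of all tested genes (5 of the 7 and 50.4% of all genes after the median of ratios), while complex IV spreads from -0.49 (Cox7a2l) to 0.34 (Cox4i2).

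Complex I oxidizes NADH. Its 44 members had a median log2 fold change of -0.05 (0.05 after rescaling by the median of ratios over genes), with 8 lower (18.2%, background 26.5%) and 1 higher (2.27%, background 9.49%) at an adjusted p at or under 0.05. The balance turned after the median of ratios, to 3 lower and 8 higher (backgrounds 14.7% and 15.6%). The 7 core catalytic subunits, which carry the flavin and the iron-sulfur clusters, were all negative, from -0.19 to -0.05, where 66.8% of all tested genes were negative (5 of the 7 and 50.4% of all genes after the median of ratios), with Ndufs1 and Ndufs7 among the lower members. Ndufs1, the largest subunit with several iron-sulfur clusters, had 56.7, 55.9, 61.9 and 58.1 CPM in WT and 49.5, 53.1, 53.1 and 53.6 CPM in miR-21-/-. Its log2 fold change was -0.15 ± 0.05 (SE, adjusted p = 0.0496). Ndufs7 was at -0.19 ± 0.07 (adjusted p = 0.0425). In both genes every miR-21-/- library was below every WT library, and they decreased by 9.85% and 12.6% on the log2(CPM + 1) scale.

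The 29 accessory subunits of complex I, which surround and stabilise the core, were mixed. Of these, 16 had negative and 13 had positive log2 fold changes, and 3 were lower (Ndufa6, Ndufa13, Ndufb11; 10.3%, background 26.5%) with none higher. Rescaled by the median of ratios, 7 were negative and 22 positive, with 2 lower (6.90%, background 14.7%) and 7 higher (24.1%, background 15.6%). Ndufb11 (chrX:20615326-20617620, mm10), a subunit of the membrane arm, had 27.9, 28.5, 26.8 and 25.6 CPM in WT and 19.3, 22.4, 18.1 and 20.9 CPM in miR-21-/-. Its log2 fold change of -0.42 ± 0.07 (adjusted p = 0.00232) was the lowest of the subunits. Ndufa6 (chr15:82350139-82354292), which binds the acyl carrier protein, had 28.1, 28.6, 27.4 and 27.5 CPM in WT and 21.7, 23.3, 24.04 and 22.6 CPM in miR-21-/-. Its log2 fold change was -0.27 ± 0.06 (adjusted p = 0.00417). The libraries of the genotypes were well apart for both genes. Ndufa13 was at -0.18 (adjusted p = 0.0487, and 0.342 after the median of ratios) and passed in 2 of the 8 fits without 1 library. At the other end, Ndufa1 was at 0.22 ± 0.09 (adjusted p = 0.0778) and did not pass, although it passed as higher after the median of ratios (0.33, adjusted p = 0.0189).

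The 8 complex I assembly factors held the lowest and the highest member of the complex. Ndufaf7 (chr17:78937135-78948053), a methyltransferase needed for complex I assembly, had 5.78, 6.65, 6.28 and 6.05 CPM in WT and 3.77, 4.38, 3.92 and 3.54 CPM in miR-21-/-. Its log2 fold change was -0.56 ± 0.09 (adjusted p = 0.00124), a 1.47-fold decrease on the log2(CPM + 1) scale and short of the 1.5-fold limit. Ndufaf2 (chr13:108002715-108158624), a chaperone of late complex I assembly, had 2.71, 3.22, 3.17 and 2.75 CPM in WT and 3.84, 3.78, 3.76 and 3.97 CPM in miR-21-/-. It rose by 0.29 ± 0.09 (adjusted p = 0.0274). Ndufaf3 was at -0.25 ± 0.09 (adjusted p = 0.0470), a call that was lost in each of the 8 fits without 1 library (adjusted p of 0.0568 to 0.113), with the median of ratios (0.189) and with quantile normalization (0.496). The remaining 5 factors did not pass, so 2 were lower (25%, background 26.5%) and 1 was higher (12.5%, background 9.49%). Ndufaf7 and Ndufaf2 went in opposite directions, each without overlap between the genotypes.

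**Figure D2:**
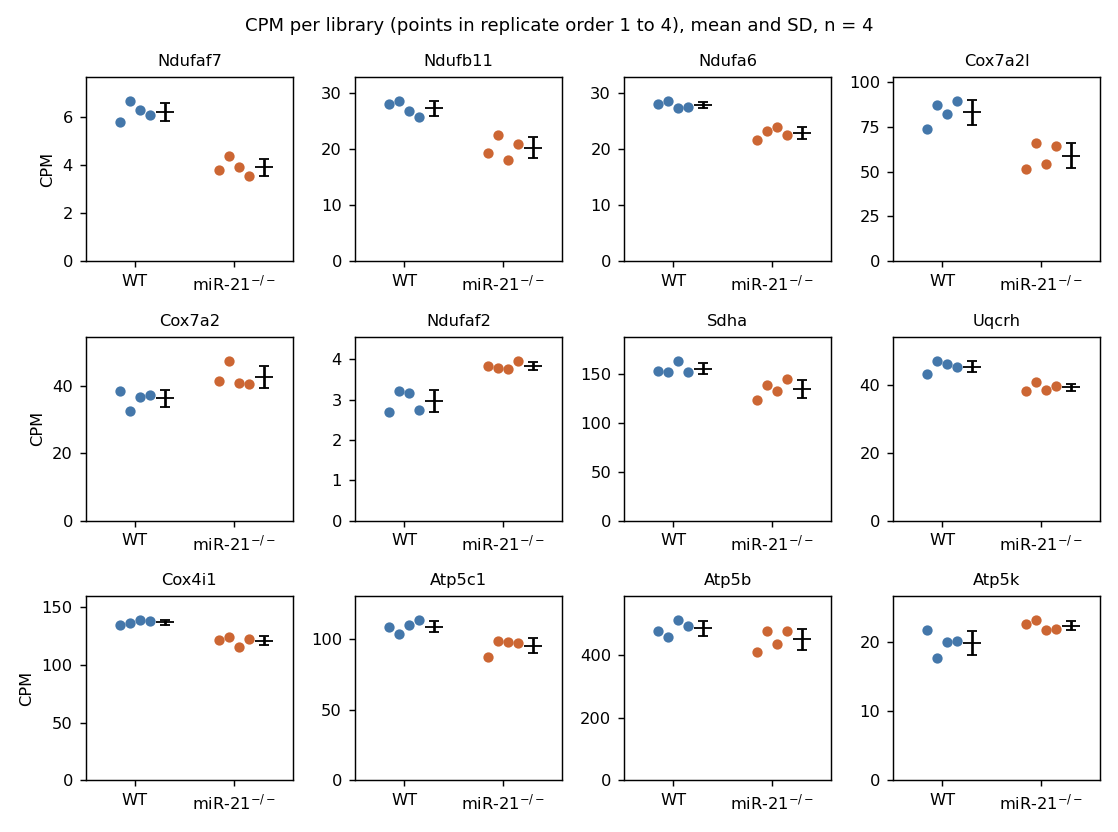
CPM (y axis, from 0, a separate scale for each gene) of 12 members in the 4 WT and 4 miR-21-/- libraries, one point per library, with the mean and SD (n = 4) beside the points. Ndufaf7, Ndufb11, Ndufa6 and Cox7a2l are lower in every miR-21-/- library than in any WT library, Cox7a2 and Ndufaf2 are higher, and Atp5b overlaps.

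Complex II, succinate dehydrogenase, is shared with the TCA cycle. Its flavoprotein Sdha had 153, 153, 164 and 152 CPM in WT and 123, 139, 133 and 144 CPM in miR-21-/-. Sdha fell by 0.20 ± 0.06 (adjusted p = 0.0220), with no overlap. The membrane anchor Sdhc had 81.0, 80.7, 86.8 and 75.04 CPM in WT and 65.0, 76.5, 67.4 and 70.6 CPM in miR-21-/-, so miR-21-/- replicate 2 lay above WT replicate 4. Sdhc fell by 0.21 ± 0.07 (adjusted p = 0.0303). The iron-sulfur subunit Sdhb, at 58.5 ± 2.09 and 59.1 ± 1.71 CPM, had a log2 fold change of 0.01 ± 0.05 (adjusted p = 0.837). The second anchor, Sdhd, was at -0.03 ± 0.07 (adjusted p = 0.719). Neither Sdha (-0.09, adjusted p = 0.206) nor Sdhc (-0.10, adjusted p = 0.223) passed after the median of ratios. With 1 library left out in turn Sdha passed in 6 of 8 fits and Sdhc in 2.

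Complex III, the cytochrome bc1 complex, had 6 negative (75%, where 66.8% of all tested genes were) and 2 positive members and a median of -0.09. After the median of ratios 3 were negative, where 50.4% of all genes were, and the median was 0.01. Uqcrh, the hinge protein, had 43.1, 47.0, 45.9 and 45.1 CPM in WT and 38.2, 40.6, 38.4 and 39.5 CPM in miR-21-/-. It fell by 0.20 ± 0.05 (adjusted p = 0.0118, and 0.144 after the median of ratios). A processed pseudogene, Gm12854, lies on the opposite strand within the Uqcrh locus and had 54.7 ± 6.67 CPM in WT against 81.2 ± 10.6 CPM in miR-21-/-. Whether reads moved between the pair was not tested. The lowest value was that of Uqcr10, at -0.22 ± 0.09 (adjusted p = 0.0881), and the highest that of Uqcrq, at 0.03 ± 0.07 (adjusted p = 0.759). The core proteins Uqcrc1, at 90.6 ± 5.02 and 82.8 ± 2.31 CPM, and Uqcrc2, at 66.9 ± 2.64 and 62.1 ± 4.35 CPM, had the highest CPM and did not pass.

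Complex IV, cytochrome c oxidase, had a positive median in the values as deposited, 0.05 over 14 tested members, where the other complexes had negative ones. Of the 14, 3 were lower (21.4%, background 26.5%) and 1 was higher (7.14%, background 9.49%), against 1 lower (7.14%, background 14.7%) and 5 higher (35.7%, background 15.6%) after the median of ratios, where complexes I, III and V had positive medians too. Cox4i1, the regulatory subunit found in most tissues, had 134, 136, 139 and 138 CPM in WT and 122, 125, 115 and 122 CPM in miR-21-/-. It fell by 0.18 ± 0.05 (adjusted p = 0.0129, and 0.287 after the median of ratios). Cox4i1 lies on the same strand inside Gm20388, a read-through gene model whose CPM was 86.5 ± 5.93 in WT and 116 ± 8.95 in miR-21-/-, and how reads were divided between them was not tested. Ndufa4, named for complex I but a subunit of complex IV, had 39.1, 40.3, 38.5 and 41.4 CPM in WT and 31.7, 34.8, 34.0 and 35.4 CPM in miR-21-/-. It fell by 0.22 ± 0.06 (adjusted p = 0.0112, and 0.131 after the median of ratios). Cox5a, Cox6b1 and Cox8a, at -0.10, 0.05 and 0.03, did not pass, although Cox6b1 passed as higher after the median of ratios (0.16, adjusted p = 0.022).

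The 2 members of the Cox7a group that were well expressed moved apart. Cox7a2l (chr17:83501919-83514334), known for a part in supercomplexes of complexes III and IV, and carried by this strain as a short variant whose activity is disputed, had 73.7, 87.1, 82.3 and 89.5 CPM in WT and 51.6, 66.0, 54.2 and 64.3 CPM in miR-21-/-. It fell by 0.49 ± 0.09 (adjusted p = 0.00277). Cox7a2 (chr9:79755361-79759879), the subunit of complex IV in most tissues, had 38.5, 32.5, 36.6 and 37.2 CPM in WT and 41.3, 47.4, 40.9 and 40.6 CPM in miR-21-/-. It rose by 0.23 ± 0.07 (adjusted p = 0.0330). The ratio of Cox7a2l to Cox7a2 CPM, which does not change when a library is multiplied by a single factor, was 1.91, 2.68, 2.25 and 2.41 in WT and 1.25, 1.39, 1.33 and 1.58 in miR-21-/-. Every miR-21-/- library lay below every WT library, with means of 2.31 ± 0.32 and 1.39 ± 0.14 (SD, n = 4 each). This separation follows from the 2 genes, which were each without overlap in opposite directions, and adds no further support. The muscle and heart isoform Cox7a1, at 0.655 ± 0.386 and 1.06 ± 0.167 CPM, overlapped between the genotypes.

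Isoforms of complex IV from other tissues were near the floor. Of 7 such members, Cox4i2 and Cox7a1 passed the filter. Cox4i2, the form of Cox4 known from lung and from hypoxic cells, had 1.47, 1.49, 2.23 and 1.59 CPM in WT and 1.19, 2.04, 3.49 and 3.37 CPM in miR-21-/-. The genotypes overlapped, and its log2 fold change of 0.34 ± 0.22 did not pass (adjusted p = 0.253). It was 1.24% ± 0.25 of the Cox4i1 level in WT and 2.10% ± 0.96 in miR-21-/-, in CPM. Cox8c was listed at 0.0001 CPM in all 8 libraries. Cox8b had at most 2 reads and Cox7b2 at most 3 reads in any library.

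The other members below the filter included a pair without overlap. The share of all genes below the filter without overlap was not counted, and among all tested genes it was 35.1%. Ndufa4l2, a relative of Ndufa4 known to be induced in hypoxia, had 0.1004, 0.139, 0.149 and 0.159 CPM in WT, or 3 to 4 reads, and 0.485, 0.2999, 0.614 and 0.430 CPM in miR-21-/-, or 10 to 16 reads. Every miR-21-/- library was higher, with an unadjusted p = 0.0286 in an exact two-sided permutation test of 4 against 4, the smallest that it allows. Its locus shares 33 bases with Shmt2 on the opposite strand, which went the other way, from 39.7 ± 1.88 to 28.4 ± 3.89 CPM. Cox6a2, the muscle form of Cox6a, had 0.368, 0.797, 0.792 and 0.558 CPM in WT and 0.261, 0.240, 0.115 and 0.298 CPM in miR-21-/- (3 to 23 reads), again with p = 0.0286 in the exact permutation test. The whole of Cox6a2 lies opposite Itgad, an integrin gene that had 11.4 ± 4.46 CPM in WT against 0.893 ± 0.40 CPM in miR-21-/-. Whether the counting used strand is not given in the sources used here, so reads of the pair cannot be told apart. The exact test gave an unadjusted p of 0.257 to 1 for the 4 remaining members.

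**Figure D3:**
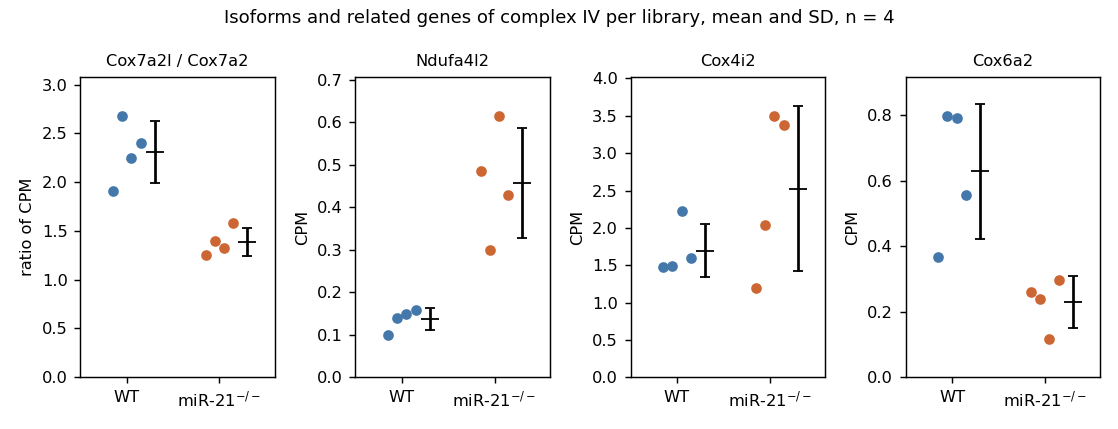
The leftmost panel plots the ratio of Cox7a2l to Cox7a2 CPM in each library, and the others the CPM of Ndufa4l2, Cox4i2 and Cox6a2, with mean and SD (n = 4) beside the points and y axes from 0. The ratio is 1.91 to 2.68 in WT and 1.25 to 1.58 in miR-21-/-, while Cox4i2 overlaps. The gap in the ratio follows from Cox7a2l and Cox7a2, each without overlap in opposite directions.

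Complex V, ATP synthase, was read by its parts. Of the 5 F1 subunits, which form the catalytic head, 4 were negative, where 66.8% of all tested genes were (3 and 50.4% after the median of ratios). Their median was -0.14 (-0.03 after the median of ratios), and Atp5c1 and Atp5d were lower (40%, background 26.5%). Atp5c1, the central stalk in the head, had 109, 103, 110 and 113 CPM in WT and 87.5, 98.6, 97.6 and 97.1 CPM in miR-21-/-. It fell by 0.19 ± 0.06 (adjusted p = 0.0215). Atp5d fell by 0.22 ± 0.07 (adjusted p = 0.0282) and passed in 3 of the 8 fits without 1 library. Neither Atp5c1 (adjusted p = 0.282) nor Atp5d (adjusted p = 0.196) passed after the median of ratios. Of the 10 subunits of the membrane ring and outer stalk, 5 were negative, none passed, and the median was 0.01 (0.12 after the median of ratios, with 2 higher, background 15.6%). The difference between these parts was not tested. Atp5k was the highest of complex V at 0.17 ± 0.07 (adjusted p = 0.0903), and Atp5s, a coupling factor, was the lowest at -0.29 ± 0.15 (adjusted p = 0.146).

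The catalytic pair of F1 led the list by CPM. Atp5b, the beta subunit, had 477, 456, 510 and 493 CPM in WT and 409, 476, 435 and 476 CPM in miR-21-/-, and Atp5a1, the alpha subunit, had 411 ± 20.8 and 373 ± 26.1 CPM. Neither passed (adjusted p = 0.230 and 0.120). Per kilobase of the longest annotated coding transcript, the highest levels in WT were those of Atp5b with 253 CPM, Cox4i1 179, Atp5a1 154, Cox5a 138 and Atp5g3 121. Ndufs1 was lower on this scale, at 21.9, and complex II was between 25.5 (Sdhc) and 55.6 (Sdhd). In miR-21-/- TAMs Atp5b, Cox4i1, Atp5a1, Cox5a and Atp5g3 kept this order, at 234, 158, 139, 129 and 118 CPM per kilobase. No test was made between genes.

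Summed over members, complex I had 1007 ± 30.8 CPM in WT against 963 ± 30.7 CPM in miR-21-/-. Complex II had 363 ± 12.5 and 331 ± 19.1 CPM, and its libraries did not overlap, from 355 to 382 CPM in WT and from 307 to 349 CPM in miR-21-/-. After the median of ratios they overlapped, from 336 to 359 in WT and from 325 to 358 in miR-21-/-. Complex III had 361 ± 19.2 and 335 ± 12.7 CPM, complex IV 728 ± 23.1 and 703 ± 24.9 CPM, and complex V 1510 ± 65.1 and 1421 ± 83.8 CPM (SD, n = 4 each). The libraries of these 4 complexes overlapped. The libraries also differed within a genotype. WT replicate 3, the shallowest, was the highest of the WT libraries in 45 of 86 members (52.3%, against 32.3% of all tested genes), and miR-21-/- replicate 1 was the lowest of its genotype in 40 (46.5%, against 35.2%). In the other direction WT replicate 2 was the lowest WT library in 44 members (51.2%, against 17.5% of all tested genes), and miR-21-/- replicate 2 was the highest of its genotype in 41 (47.7%, against 27.8%). Without WT replicate 3 and miR-21-/- replicate 1 there were 6 lower (6.98%, where 17.4% of all genes were lower in that fit) and 3 higher members (3.49%, where 8.24% of all genes were higher). Without the replicates 2 of both genotypes there were 6 lower (6.98%, where 13.5% of all genes were lower) and 0 higher members (where 5.88% of all genes were higher). Both fits have fewer samples.

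How many members were lower or higher depended on the scaling. Rescaling the libraries by the median of ratios over genes moved the median of all tested genes from -0.10 to -0.003. The members then had a median of 0.05, with 4 lower (4.65%, background 14.7%) and 15 higher (17.4%, background 15.6%). Quantile normalization gave 7 lower (8.14%, background 16.3%) and 13 higher (15.1%, background 13.7%), and columns rescaled to 1e+06 gave 17 lower (19.8%, background 29.1%) and 2 higher (2.33%, background 9.2%). The share of higher members thus lay slightly above that of all genes after the median of ratios and quantile normalization, a difference that was not tested. The sign of the log2 fold change differed between scalings in 26 members. In each of the 4 scalings the median of the members lay above the median of all genes, and the median of complex IV was positive. With a filter of 50 per 1e+06, which left 31 members, the order of the medians turned, at -0.08 for the members against -0.06 for all genes, with 9 lower (background 29.8%) and none higher (background 16.1%).

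Under all 4 scalings 6 members passed 0.05 with the same sign, or 7% of the 86, where 22% of all tested genes did. They were Cox7a2l, Ndufa6, Ndufaf7 and Ndufb11, which were lower, and Cox7a2 and Ndufaf2, which were higher. Over the scalings the log2 fold change of Cox7a2l was -0.51 to -0.38, that of Ndufaf7 -0.59 to -0.38 and that of Ndufb11 -0.43 to -0.31. It was -0.29 to -0.17 for Ndufa6, 0.21 to 0.34 for Cox7a2 and 0.29 to 0.47 for Ndufaf2. The 4 lower ones also had an adjusted p at or under 0.005 in the values as deposited, at any fold, as did 9.68% of all genes on the lower side. By contrast the core catalytic subunits of complex I had no call after the median of ratios or quantile normalization, and after the median of ratios 5 of the 7 were negative. Ndufs1 also passed in none of the 8 fits without 1 library, and Ndufs7 passed in 1. Cox7a2 passed in 5 of these fits and Ndufaf2 in 2, with an adjusted p of at most 0.0908 and 0.0677.

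**Figure D4:**
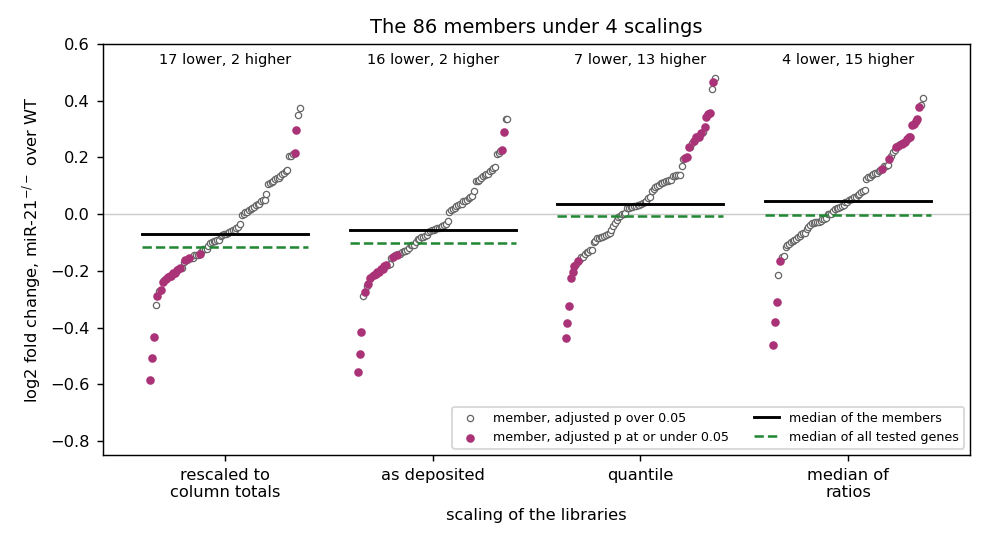
The 86 members in order of log2 fold change (y axis) under each of 4 scalings of the libraries (x axis). Filled points pass an adjusted p of 0.05, the black bar is the median of the members and the dashed bar that of all tested genes. Lower calls go from 17 to 4 and higher calls from 2 to 15 between the outermost scalings.

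Other gene groups of the mitochondrion and of protein synthesis were read in the same fit. Mitochondrial ribosomal proteins, 78 genes, had a median of -0.09 (0.02 after the median of ratios) with 11 lower (14.1%, background 26.5%) and 2 higher (2.56%, background 9.49%), and 4 lower (5.13%, background 14.7%) and 3 higher (3.85%, background 15.6%) after the median of ratios. Among them Mrps6 was the lowest, at -0.59 ± 0.10 (adjusted p = 0.00187), and Mrpl39 the highest, at 0.38 ± 0.06 (adjusted p = 0.000827). TCA cycle enzymes had a median of -0.05 (0.06 after the median of ratios). Of 13, 4 were lower (30.8%) under both scalings, where the background was 26.5% as deposited and 14.7% after the median of ratios. None was higher under either scaling (backgrounds 9.49% and 15.6%). Suclg2, a subunit of succinyl-CoA ligase, was the lowest at -0.57 ± 0.09 (adjusted p = 0.00102). Cytosolic ribosomal proteins, which resemble the OXPHOS members in length, with a median transcript of 910 against 937 bases, had a median of -0.43 with 73 of 82 lower (89.0%, background 26.5%) and none higher. After the median of ratios 62 were lower (75.6%, background 14.7%) and 1 was higher (1.22%, background 15.6%), and the median was -0.32. Rpl17, Rpl10a and Rps16 passed the limits of 0.005 and 1.5-fold, at -0.88, -0.60 and -0.60, but none of the 3 did after the median of ratios (-0.80, -0.49 and -0.49). Rps27l was the highest at 0.08 ± 0.06 (adjusted p = 0.287, and 0.0373 after the median of ratios). No test was made of the difference between these groups.

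Genes that act with the members outside the symbol pattern were also counted. Cycs, cytochrome c, the electron carrier between complexes III and IV, had 19.3 ± 2.71 CPM in WT against 30.2 ± 6.12 CPM in miR-21-/- without overlap, and rose by 0.61 ± 0.15 (adjusted p = 0.00993). Atpif1, the inhibitor of ATP synthase, fell by 0.22 ± 0.08 (adjusted p = 0.0464, and 0.274 after the median of ratios). The other 5 tested genes of that list did not pass, although 2010107E04Rik passed as higher after the median of ratios (0.21, adjusted p = 0.032). Of 41 tested assembly factors, 11 were lower (26.8%, background 26.5%) and 2 were higher (4.88%, background 9.49%), against 3 lower (7.32%, background 14.7%) and 4 higher (9.76%, background 15.6%) after the median of ratios. Coa5, for complex IV, rose from 144 ± 5.65 to 208 ± 15.8 CPM (log2 fold change 0.53 ± 0.06, adjusted p = 0.000269), and Cox17, the copper chaperone, from 25.4 ± 1.37 to 30.6 ± 1.01 CPM. Sdhaf1, an assembly factor of complex II, was the lowest at -0.53 ± 0.12 (adjusted p = 0.00626).

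Of 14 tested regulators of nuclear and mitochondrial transcription, 3 were lower (Esrra, Yy1 and Twnk; 21.4%, background 26.5%) and 1 was higher (7.14%, background 9.49%). Of the lower ones Esrra (adjusted p = 0.212) and Twnk (adjusted p = 0.0822) did not pass after the median of ratios, which gave 1 lower (7.14%, background 14.7%) and 3 higher (21.4%, background 15.6%). The higher one was Hif1a, the oxygen-sensitive transcription factor, with 228 ± 36.8 CPM in WT against 467 ± 63.5 CPM in miR-21-/-. Its log2 fold change of 1.03 ± 0.12 passed the limits of 0.005 and 1.5-fold (adjusted p = 0.000248). Nrf1, Gabpa and Tfam, known activators of OXPHOS genes, did not pass, at -0.10, 0.11 and -0.11, although Gabpa passed as higher after the median of ratios (0.22, adjusted p = 0.0257). The coactivator Ppargc1a had at most 2 reads in any library and was not tested. Of 14 carriers and other mitochondrial proteins, 3 were lower (Slc25a4, Hspd1 and Hspe1; 21.4%, background 26.5%) and Vdac2 was higher (7.14%, background 9.49%). Slc25a4 did not pass after the median of ratios (adjusted p = 0.0522). Citrate synthase, often used as a measure of mitochondrial mass, was at 0.01 ± 0.07.

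Promoters of OXPHOS genes are known for sites of NRF1, GABP, YY1 and the estrogen-related receptors. The letters CGCATGCG (NRF1), CCGGAAG (GABP and other ETS factors), AAGATGGC (YY1) and CAAGGTCA (ERR) were searched on both strands from 250 bases before to 50 bases after the RefSeq start, in the 74 members with a promoter in the table. CGCATGCG was found in 11 members (14.9%), against 2.07% of all 27025 genes of the table and 4.48% of its tested genes. CCGGAAG was found in 24.3%, against 9.93% and 21%, AAGATGGC in 13.5%, against 3.19% and 5.54%, and CAAGGTCA in 5.41%, against 1.76% and 1.28%. A match is a description of the letters and not a bound site.

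In the values as deposited the 34 members with any of these letters had a median log2 fold change of 0.02, with 2 lower and none higher, where 26.5% of all tested genes were lower and 9.49% higher. The 37 tested members with a promoter and no match had a median of -0.11, with 10 lower and 2 higher. After the median of ratios the medians were 0.13 and 0.002, with 0 lower and 8 higher of the 34 and 4 lower and 6 higher of the 37 (background 14.7% lower and 15.6% higher). Atp5k, Atp5j and Cox6a1 are shown because each holds CGCATGCG with CCGGAAG or its reverse complement CTTCCGG, and because none of them passed the test in the values as deposited. They are 3 of the 5 members with both, chosen after the values were seen. The others, Atp5l at 0.14 ± 0.09 (adjusted p = 0.227) and Uqcr11 at -0.08 ± 0.08 (adjusted p = 0.485), did not pass either. In each, capitals mark the letters found, including AAGATGGC in Atp5j. The sequences are from RefSeq on GRCm38.p6, 5′ to 3′ on the minus strand of each gene. They lie at chr5:108434350-108434649 for Atp5k, chr16:84834927-84835226 for Atp5j and chr5:115348909-115349208 for Cox6a1.
Atp5k: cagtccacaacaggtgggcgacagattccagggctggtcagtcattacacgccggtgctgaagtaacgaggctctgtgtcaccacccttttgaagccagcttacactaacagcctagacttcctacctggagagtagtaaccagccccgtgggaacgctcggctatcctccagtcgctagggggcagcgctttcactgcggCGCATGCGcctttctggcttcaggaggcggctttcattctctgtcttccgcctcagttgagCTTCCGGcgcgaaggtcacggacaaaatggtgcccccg
Atp5j: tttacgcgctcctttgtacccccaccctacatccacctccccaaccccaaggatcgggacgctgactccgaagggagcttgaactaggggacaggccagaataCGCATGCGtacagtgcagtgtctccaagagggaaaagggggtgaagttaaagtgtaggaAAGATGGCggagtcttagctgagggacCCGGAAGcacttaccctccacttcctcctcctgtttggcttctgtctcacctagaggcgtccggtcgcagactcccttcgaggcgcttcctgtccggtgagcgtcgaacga
Cox6a1: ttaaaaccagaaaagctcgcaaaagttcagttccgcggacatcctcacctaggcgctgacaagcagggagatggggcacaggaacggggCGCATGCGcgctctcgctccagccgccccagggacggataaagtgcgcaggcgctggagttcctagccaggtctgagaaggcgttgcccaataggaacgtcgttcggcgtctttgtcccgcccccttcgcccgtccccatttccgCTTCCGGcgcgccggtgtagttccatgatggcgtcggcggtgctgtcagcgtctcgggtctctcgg

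Atp5k had 21.7, 17.6, 19.9 and 20.02 CPM in WT and 22.5, 23.1, 21.6 and 21.9 CPM in miR-21-/-. Atp5j, a stalk subunit, had 38.2, 31.7, 33.0 and 35.7 CPM in WT and 37.1, 40.8, 37.6 and 34.8 CPM in miR-21-/-, and its locus overlaps that of Gabpa on the opposite strand. Gabpa, which encodes the DNA-binding part of GABP, had 51.7 ± 3.47 and 55.9 ± 3.18 CPM. Cox6a1 had 57.6, 55.0, 67.4 and 60.8 CPM in WT and 64.1, 67.8, 66.2 and 67.2 CPM in miR-21-/-. All of them overlapped between the genotypes. After the median of ratios Atp5k (adjusted p = 0.0205) and Cox6a1 (adjusted p = 0.0118) passed as higher, and Atp5j did not (adjusted p = 0.0545).

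The seed of miR-21, the stretch that pairs with targets, was searched for in the longest coding transcript's 3′ UTR of each member. The mature miRNA is shown from RefSeq (chr11:86584120-86584141, minus strand, GRCm38.p6), with bases 2 to 8 in capitals, since its loss is the genotype compared.
miR-21a-5p: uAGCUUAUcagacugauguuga

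The 7 letters that pair with this seed occurred in 4 of the 92 members, beside 7.62% of tested genes, and the members' 3′ UTRs were short, with a median of 188.5 bases against 1139. The sites are shown with their flanks, seed match in capitals.
Atp5g1: cctaggccATAAGCTaggctgct
Ndufaf4: tgtctgatATAAGCTtgagataa
Ndufb5: cactgttgATAAGCTgctgatgc
Ndufv2: ttccctacATAAGCTttattcgg

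The log2 fold changes of Atp5g1, Ndufaf4, Ndufb5 and Ndufv2 were -0.25, -0.13, -0.06 and -0.14, and none of them passed the test. Only the first of the sites in Ndufv2, which has 2, is printed.

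Transcript length went with the direction of the members. Spearman's rho between the length of the longest coding transcript and the log2 fold change was -0.33 across the 86 members and -0.04 across 11491 tested genes. These are across genes, which are not independent replicates and share the same 8 libraries. The 43 members of at most 936.5 bases had a median of 0.02, with 5 lower (11.6%) and 2 higher (4.65%), and the 43 longer ones had a median of -0.08, with 11 lower (25.6%) and none higher, beside 26.5% and 9.49% of all tested genes. Tested genes no longer than this had a median of -0.09. After the median of ratios the shorter members had a median of 0.13, with 2 lower (4.65%) and 11 higher (25.6%), and the longer ones of 0.02, with 2 lower (4.65%) and 4 higher (9.30%), beside a median of -0.003 over all genes, of which 14.7% were lower and 15.6% higher. The short subunits of the membrane ring and of complex IV and the long catalytic subunits of complexes I, II and V differ in length, so role and length cannot be told apart here.

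**Figure D5:**
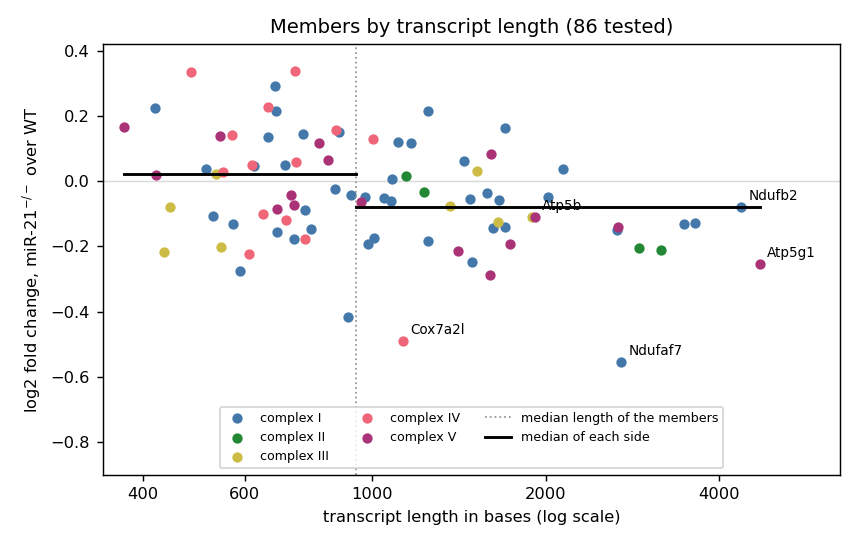
Length of the longest coding transcript in bases (x axis, log scale) against the log2 fold change (y axis) of the 86 tested members, colored by complex. The dotted line is the median length of the members. The black bars are the medians of the shorter side (0.02) and the longer side (-0.08), which were 0.13 and 0.02 after the median of ratios.

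Many members have copies that share their sequence. In 17 members, 25 pseudogenes or predicted genes of the table shared at least 30% of their 50-base words with the member, and 17 of these copies, of 14 members, had a mean of at least 1 CPM. In 7 members the copies held more CPM than the member in WT. Atp5g2, for instance, was listed at 1.08 ± 0.157 CPM in WT against 1.00 ± 0.361 CPM in miR-21-/-, while its copy Gm10175 had 79.4 ± 5.70 and 66.1 ± 4.35 CPM. The level of Atp5g2 and of the other 6 (Atp5g1, Atp5h, Atp5l, Cox7c, Ndufa12 and Ndufab1) is therefore uncertain. With the CPM of the copies added, 17 members were lower (19.8%, where 26.5% of all genes were lower in that fit). In the same fit 4 were higher (4.65%, where 9.51% of all genes were higher). Atp5g2 joined the lower ones and Cox5b and Ndufs5 the higher ones. Gm6969, a copy of Cox7a2l, had 9.28 CPM in WT against 6.87 CPM in miR-21-/-. By coordinates 38 members overlap another gene, 23 of them a gene of at least 1 CPM.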

How the data were processed

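RNA of TAMs sorted from subcutaneous LLC tumors, in 4 WT and 4 miR-21-/- samples, was made into libraries with a poly(A) mRNA kit. Per the labels, the authors used STAR and Partek 7.0 with the mm10 build. The deposited CPM values cover 53247 genes, each raised by 0.0001. The counting rule, the strand setting and the annotation are not given in the sources used here. Columns sum to 788099 to 807758 CPM, and of values worth at most 20 reads, 72.7% to 73.7% lay within 0.02 of a whole read, so reads were not recovered for a count model.

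From these values log2(CPM + 1) was modelled by limma 3.58.1 (R 4.3.3; lmFit, then eBayes with trend, two-sided), with Benjamini-Hochberg adjustment over all 13850 tested genes and genotype as the sole term. Limits were an adjusted p at or under 0.005 with a fold change over 1.5, and 0.05 at any fold. On simulated data for this comparison, 80.5% of 200 genes given a log2 change of 1, among 13850, were called, with 1 unchanged gene called. The values were drawn for each gene alone, without differences shared by a library. The members' log2 fold changes lay between -0.56 and 0.34, so this share does not measure how often changes of their size are called. A fold change on this scale understates that of low genes. The members and lists were chosen with earlier results of these data known. Members named are the highest and the lowest by log2 fold change and the highest by CPM in each complex, the 10 with the smallest p, complex II, and isoforms of the same subunit, and of the other lists, except the cell type and stress markers, which are given as sums, the highest, the lowest and those past the first limit. Others (Ndufs7, Ndufa1, Ndufa13, Ndufaf3, Atp5d, Atp5j, Ndufb5, Ndufv2, Ndufaf4, Cox5b and Ndufs5, among others) were named after their values were seen. Not every gene that this rule names is reported here. Symbols ending in -ps and a number were left out with those in -ps. Lengths and 3′ UTRs are those of the longest coding transcript in GENCODE vM21, where 80 of the 92 members have the start given in the table. Alternatives changed the pseudocount, the filter, the scaling, the variance model, the samples and the members counted. Figures were drawn with matplotlib 3.10.9.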

Additional observations from a re-analysis of the deposited data

Results flagged for a closer look

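In the 39 members named by the rule, or 78 groups of 4 libraries, 7 values, from 4 libraries, stood apart from the rest of their genotype by Dixon's criterion, where chance gives about 1 in 20 groups. miR-21-/- replicate 1 was low for Ndufs1 (49.5 CPM, the others 53.1 to 53.6) and for Atp5c1 (87.5 CPM, the others 97.1 to 98.6), and was the only one of its genotype with a read of Cox7b2 (0.0374 CPM), where a single read meets the criterion by construction because the others had none. WT replicate 3 was high for Sdha (164 CPM, the others 152 to 153) and Cox4i2 (2.23 CPM, the others 1.47 to 1.59). miR-21-/- replicate 2 was high for Cox7a2 (47.4 CPM, the others 40.6 to 41.3), and miR-21-/- replicate 3 was low for Cox7a1 (0.806 CPM, the others 1.12 to 1.17).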

How the results depend on the processing

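The number of members past 0.005 and 1.5-fold, 0 in the values as deposited, was 1 (Ndufaf7) with a pseudocount of 0.1 and with columns rescaled to 1e+06, 0 to 1 with 1 library left out, and 4 with no limit on the fold. The 16 lower members became 9 with a filter of 50 per 1e+06, 4 with the median of ratios, 7 with quantile normalization, 6 without WT replicate 3 and miR-21-/- replicate 1 together and 6 without the replicates 2 of both genotypes, and were 8 to 12 with 1 library left out. The 2 higher members became 1 with no filter, with a filter of 5 and among subunits only, 0 with a filter of 50 and without the replicates 2, 15 with the median of ratios, 13 with quantile normalization, 4 with array weights and 4 with copies added, and were 0 to 3 with 1 library left out. A filter of 50 and the subunits-only count leave fewer genes by construction, and the cause of the other moves was not tested.

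With a filter of 50 the median of the members was below that of all genes (-0.08 against -0.06). With the median of ratios and quantile normalization the median log2 fold change became 0.047 and 0.034 for the members, 0.051 and 0.041 for complex I, -0.0078 and -0.061 for complex II, 0.014 and -0.025 for complex III, 0.164 and 0.126 for complex IV, and 0.034 and 0.013 for complex V. Without WT replicate 3 and miR-21-/- replicate 1 it was -0.055 for complex II and -0.033 for complex III, and without the replicates 2 it was -0.146 for complex III. With 1 library left out it was -0.08 to -0.03 for the members, -0.08 to -0.03 for complex I, -0.15 to -0.08 for II, -0.13 to -0.06 for III, 0.04 to 0.07 for IV and -0.09 to -0.05 for V. Replicate numbers did not pair the samples (correlations of same-numbered samples 0.08, -0.11, -0.14 and 0.22). With the replicate number as a block 10 members were lower, 0 were higher and 0 passed 0.005 and 1.5-fold, and the medians were the same. The share of all genes called in that fit was not counted, so a general loss of calls cannot be told apart from one in the members. Of all values computed under the alternatives, 669 stayed on the same side of the call, 76 lost a call and 18 gained a call. None of them changed sign with a call. Values without a call could change sign, as did the log2 fold change of Sdhb (0.015 with all libraries, -0.0086 without WT replicate 2). The highest row per symbol equals the table, since symbols are unique. Count tests were not run because whole reads were not recovered. Leaving out either pair of libraries, adding the copies and counting numbered pseudogenes were chosen after seeing the data.

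Depth limits Ndufa4l2, Cox6a2, Cox6b2, Cox7b2, Cox8b and Cox8c, which have few reads. Reads that copies or overlapping genes share, and RNA from other cells in the sort, can move single members.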
